A study of Mus musculus with 6 samples.

Results

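The 9 transcription factor genes of naive and resting T cells are described here in regulatory T cells (Treg), a CD4 lineage that restrains immune responses. The genes are Satb1, Tcf7, Lef1, Bach2, Klf2, Klf3, Id3, Foxp1 and Ets1, and each matched a single entry of the 23282 in the count files. They were chosen by name, with earlier results of these data known. All 9 were among the 10475 genes with enough counts to be tested. The IPMK cKO group held 3 libraries of Treg with a conditional knockout of inositol polyphosphate multikinase (IPMK), a kinase that phosphorylates inositol phosphates and phosphoinositides, and the wild type group held 3 libraries of Treg with no such deletion. Flow cytometry was used to sort the Treg of both groups from C57BL/6 spleen, and no stimulus was given. The study concerned inositol polyphosphates, calcium influx and effector Treg. The Cre driver, the deleted part of Ipmk, the age of the mice and whether a library held cells of several mice are not stated in the labels. The libraries are called biological replicates, but nothing ties them to separate animals. The p-values therefore reflect the spread among these 6 libraries alone, part of which may be technical.

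Resting T cells recirculate through spleen and lymph nodes and keep a quiescent state that is held by such factors. SATB1 folds chromatin into loops at T cell genes. TCF1, encoded by Tcf7, and LEF1 bind DNA through a high mobility group domain. BACH2 represses genes of effector differentiation. KLF2 drives genes of egress and lymph node homing, KLF3 is a repressor of the same zinc finger family, ID3 blocks the DNA binding of E proteins, and FOXP1 and ETS1 are factors of naive T cell maintenance. On activation, effector Treg lower several of these genes.

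Libraries held 8363324 to 8980395 counts in IPMK cKO and 7464546 to 8246993 counts in wild type. The ribosomal RNA precursor Rn45s took 16.7% to 32.1% of a library. The targeted gene Ipmk had 3, 21 and 0 counts in IPMK cKO replicates 1 to 3, against 129, 77 and 99 counts in wild type. IPMK cKO replicate 1 stood apart from the other 5 libraries on the first principal component of all genes (38.7% of the variance). On the second (24.2%) wild type replicate 1 was at 127.7, and the others were at −70.6 to 0.7. The Treg label was checked against 8 markers, all with counts, whose summed level was 2519 to 3369 CPM (counts scaled to library size) in IPMK cKO and 2842 to 3400 CPM in wild type. Among them Ikzf2, which encodes the factor Helios and was the most abundant, was at 794, 1168 and 713 CPM in IPMK cKO and at 843, 1635 and 1172 CPM in wild type, and the surface receptor gene Nrp1 was at 354, 473 and 294 CPM in IPMK cKO and at 660, 496 and 492 CPM in wild type. Foxp3, the factor of the Treg lineage, was at 85.1, 72.0 and 82.3 CPM in IPMK cKO and at 10.3, 80.6 and 29.0 CPM in wild type replicates 1 to 3. Every IPMK cKO library was below wild type for Nrp1, as for 5.66% of all genes tested. For Tnfrsf18 every IPMK cKO library was above, at 515, 287 and 351 CPM against 238, 239 and 271 CPM in wild type. The same held for 4.74% of all genes tested. The groups overlapped for the other Treg markers, Ikzf2 and Foxp3 among them. Of the markers of other cells, the B cell gene Pax5, the CD8 gene Cd8a, the NK genes Ncr1 and Klra8, the myeloid genes Cd14 and Adgre1 and the conventional T cell cytokine Il2 had no count in any library.

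As an example of the sequence in front of these genes, the 250 bases before the RefSeq start (build GRCm38.p6) are shown for Satb1, the factor with the smallest p-value, and for Lef1, for which the window lies outside the GENCODE gene as well. The Satb1 window is chr17:51833291-51833540 on the minus strand and the Lef1 window is chr3:131110073-131110322 on the plus strand. Capitals mark a match to any of 6 motifs that these factors or their partners bind, searched on both strands.
Satb1: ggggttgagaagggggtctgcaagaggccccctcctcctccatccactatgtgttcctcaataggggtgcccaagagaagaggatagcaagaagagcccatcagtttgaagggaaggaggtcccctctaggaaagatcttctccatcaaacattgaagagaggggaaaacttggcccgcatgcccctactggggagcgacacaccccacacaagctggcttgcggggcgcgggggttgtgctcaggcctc
Lef1: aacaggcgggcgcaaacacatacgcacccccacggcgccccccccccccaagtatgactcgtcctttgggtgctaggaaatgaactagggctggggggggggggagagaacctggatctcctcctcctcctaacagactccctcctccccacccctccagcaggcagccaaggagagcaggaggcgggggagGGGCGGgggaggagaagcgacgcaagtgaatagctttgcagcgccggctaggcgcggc
Windows were found for 8 of the 9 factors, the window nearest to the GENCODE start being taken, and Ets1 had no entry. The windows of Bach2, Id3 and Foxp1 lie inside the GENCODE gene, and those of Klf2 and Klf3 cross its start. That of Bach2 begins at 32417185, in a gene that begins at 32238804. The KLF and SP motif GGGCGG was in 6 of the 8 windows, among them that of Lef1, against 32.7% of all 32851 promoter windows of this length. In the Id3 window 2 matches of GGGCGG overlapped each other, and the GC content of the 8 windows was 50.4% to 78.4%. The ETS core CGGAAG was in 1 of the 8 windows (13.6% of all windows), the TCF and LEF core CTTTGA in 1 (13.8%) and the E-box CAGCTG in 1 (13.0%). The ETS and the TCF and LEF matches were both in the Bach2 window, inside the gene, and the E-box was in that of Tcf7. The Tcf7 window lies outside the GENCODE gene, but its E-box and its 2 GGGCGG matches follow an ATG. The frame of that ATG holds no stop codon up to the end of the window. Whether these Tcf7 bases are coding sequence was not tested. The forkhead motif GTAAACA was in none of the 8 (3.17% of all windows), nor was the AP-1 and BACH core TGACTCA (4.46%). The Satb1 window held none of the 6, which says only that these letters are not in this window.

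Libraries of this kind take a tag near the 3′ end of each polyadenylated transcript, so CPM was compared between genes without division by length. The annotation used for counting is not stated, and the share of tags that was counted may differ between genes. The order below is thus one of tag counts. Averaged over the 6 libraries, Ets1 was at 891 CPM, Foxp1 at 855, Klf3 at 600, Satb1 at 475, Klf2 at 463, Lef1 at 281, Bach2 at 188, Id3 at 80.4 and Tcf7 at 56.7 CPM. All 9 lay between the 73.6 and the 99.3 percentile of abundance among the genes tested. Some neighbours in this order were not separated by their spread. Ets1 was above Foxp1 in 4 of 6 libraries (1 of 3 IPMK cKO and 3 of 3 wild type), Satb1 was above Klf2 in 2 of 6 (2 of 3 IPMK cKO and 0 of 3 wild type) and Id3 was above Tcf7 in 4 of 6 (1 of 3 IPMK cKO and 3 of 3 wild type). Klf3 was above Satb1, Klf2 above Lef1 and Lef1 above Bach2 in 5 of 6 libraries each, while Foxp1 was above Klf3 and Bach2 above Id3 in 6 of 6. A member had 155 to 9889 counts in a library, so counting error was at most 8.03% of a count.

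**Figure D1:**
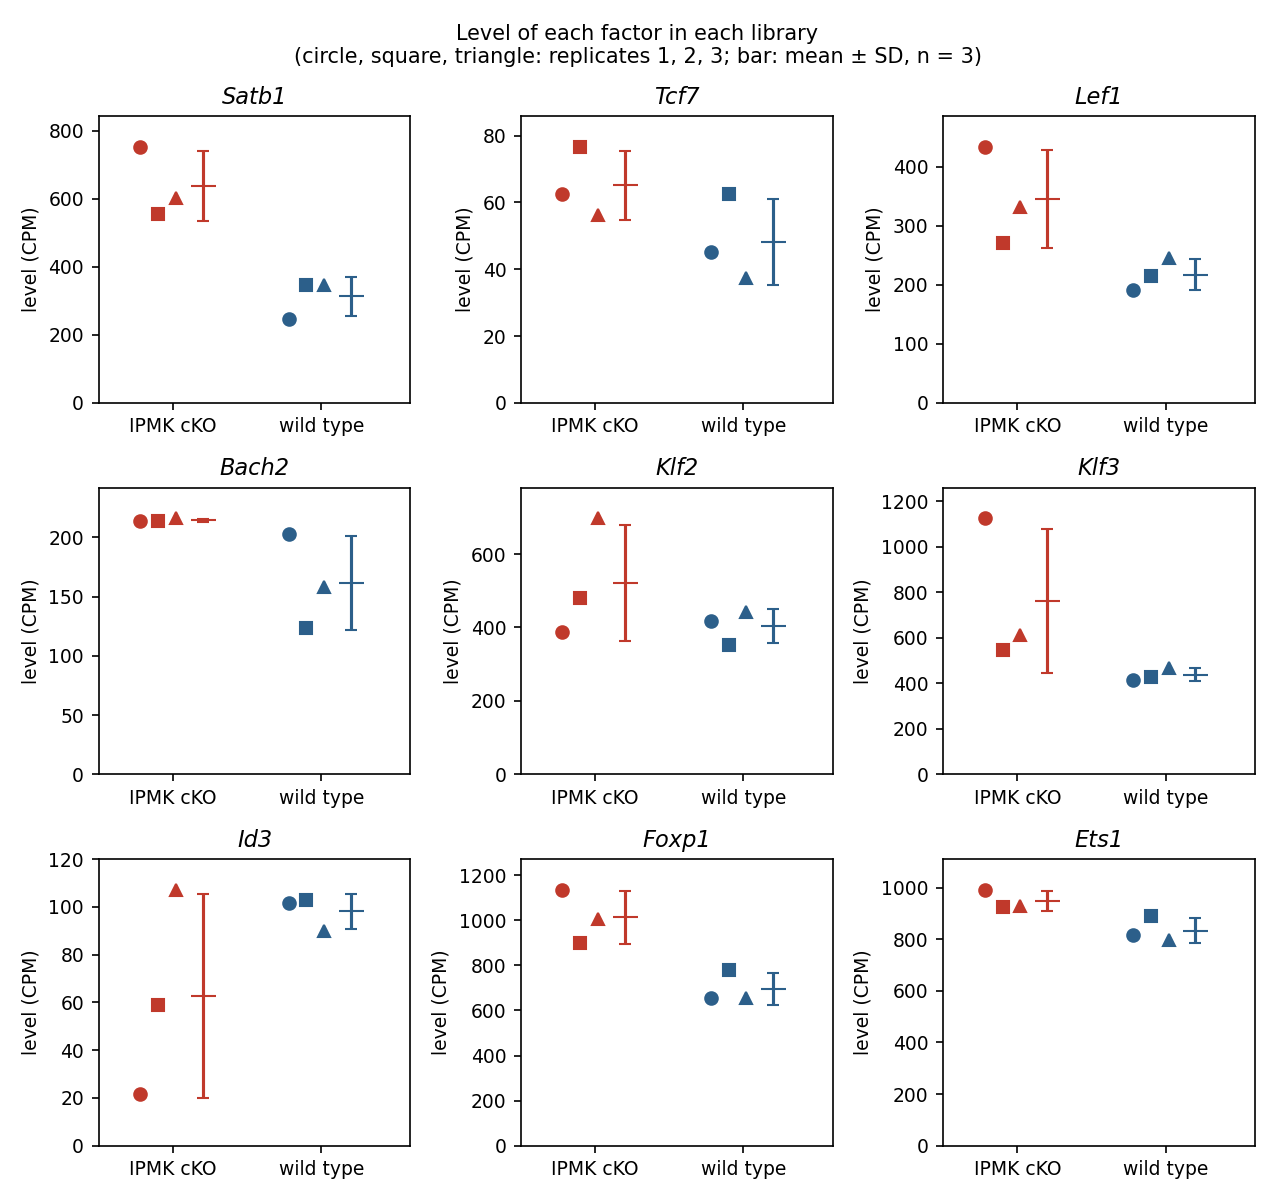
Level of each factor in CPM (y axis, from 0) in the IPMK cKO and wild type libraries (x axis), with circle, square and triangle for replicates 1, 2 and 3 and the mean ± SD beside them (n = 3 each). Satb1, Lef1, Bach2, Klf3, Foxp1 and Ets1 have every IPMK cKO library above every wild type library, whereas Id3 has 2 IPMK cKO libraries below every wild type library.

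Levels of most of these factors were higher in the IPMK cKO libraries, but none of the 9 passed the test. With edgeR's quasi-likelihood fit and a threshold of 0.05 on the adjusted p, 0 of the 9 were called, and 0% of the 10475 genes tested were called in either direction. At an unadjusted edgeR p under 0.05 there were 3 factors, Satb1, Klf3 and Lef1, all with higher estimates in IPMK cKO (1.37% of all genes and 2.14% of the 2809 genes whose mean level lay within the range of the 9). There were 0 with lower estimates (1.19% of all genes, and 2.56% in either direction). DESeq2 and limma-voom also called 0 of the 9, where DESeq2 called 0% of all genes higher and 0.0286% lower and limma-voom 0% in each direction. For 6 of the 9, Satb1, Lef1, Bach2, Klf3, Foxp1 and Ets1, every IPMK cKO library lay above every wild type library. The same held for 4.74% of all genes tested and for 5.84% of the genes in that range of level. The 9 were chosen with earlier results of these data known, so such shares are no test of them as a set. For 0 of the 9 did every IPMK cKO library lie below every wild type library, against 5.66% of all genes and 3.99% of those in the range. Without IPMK cKO replicate 1 these counts were 7 and 0, and without IPMK cKO replicate 3 they were 6 and 1. The estimate was above 0 for 8 of the 9 (51.8% of all genes and 60% of those in the range) and below 0 for Id3 (48.2% of all genes), with a median log2 fold change (IPMK cKO over wild type) of +0.43, beside +0.03 over all genes and +0.10 over the genes in that range. The median of the 9 ranged from +0.25 on library totals alone to +0.61 without wild type replicate 2. In bulk samples a lower number of cells of a type and less RNA per cell cannot be told apart.

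**Figure D2:**
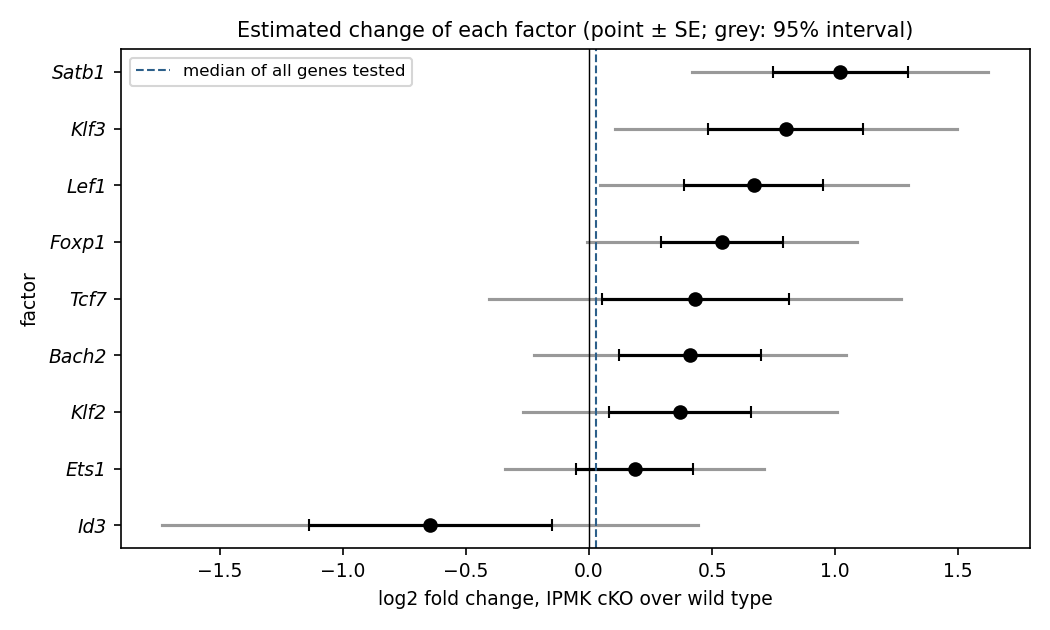
Estimated log2 fold change of each factor, IPMK cKO over wild type (x axis), as a point with its SE from edgeR and the 95% interval in grey. The intervals of Satb1, Klf3 and Lef1 lie above 0, those of the other 6 factors include 0, and the dashed line at +0.03 is the median of all genes tested.

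Satb1 (ENSMUSG00000023927, chromosome 17, 51736187 to 51833290 on the minus strand of mm10) was at 752, 556 and 602 CPM in IPMK cKO replicates 1 to 3, against 248, 347 and 346 CPM in wild type. The lowest IPMK cKO library was thus above the highest wild type library, and the group means stood at a ratio of 2.03. The log2 fold change was +1.02 (SE 0.27, 95% interval 0.42 to 1.62), with an unadjusted edgeR p of 0.00333 that ranked 7 of 10475 genes. The edgeR adjusted p was 0.9999 and the DESeq2 adjusted p was 0.0899. The estimate was +0.88 without IPMK cKO replicate 1 and +0.87 without wild type replicate 1. Satb1 has 10 coding transcripts with 10 distinct 3′ ends in GENCODE M21, and the entry does not show which of them gave the tags.

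The paralogs Tcf7 and Lef1 differed in tag counts, although the share of tags that was counted may differ between genes. Tcf7 (ENSMUSG00000000782, chromosome 11, 52252371 to 52283014, minus strand) was at 62.5, 76.6 and 56.1 CPM in IPMK cKO and 45.0, 62.5 and 37.3 CPM in wild type. The groups overlapped through wild type replicate 2 (log2 fold change +0.43, SE 0.38, 95% interval −0.41 to 1.27). Lef1 (ENSMUSG00000027985, chromosome 3, 131110471 to 131224356, plus strand) was at 433, 270 and 332 CPM in IPMK cKO and 192, 215 and 245 CPM in wild type. The groups did not overlap, with IPMK cKO replicate 2 nearest to wild type replicate 3, and the estimate was +0.67 (SE 0.28, edgeR unadjusted p = 0.0383, adjusted p = 0.9999). Within a library Lef1 had more counts than Tcf7 in all 6, with a Tcf7 to Lef1 ratio of 0.144 to 0.283 in IPMK cKO and 0.153 to 0.291 in wild type.

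Bach2 (ENSMUSG00000040270, chromosome 4, 32238804 to 32586108, plus strand) was at 213.6, 213.6 and 216.0 CPM in IPMK cKO and 202, 123 and 158 CPM in wild type. The IPMK cKO libraries were almost level, with a coefficient of variation of 0.632%, below the counting error of 2.17% of the largest of these counts, and wild type replicate 1 was near them while replicate 2 was the lowest. The estimate was +0.41 (SE 0.29, 95% interval −0.22 to 1.05), and it was +0.61 without wild type replicate 1 and +0.24 without wild type replicate 2. Bach2 shares 537 exonic bases with Bach2os on the opposite strand. The strand setting of the counting is not stated, so reads of the pair cannot be told apart. Bach2os itself had 0, 90 and 59 counts in IPMK cKO and 0, 28 and 0 counts in wild type, against 901 to 2128 counts of Bach2. The same limit holds for Lef1, which shares 1208 exonic bases with Gm43352 on the opposite strand, for Klf3 with 404 bases of Gm20033 and for Satb1 with 128 bases of Gm6934. On the same strand Satb1 shares 156 bases with Gm36931, and Foxp1 shares 300 bases with Gm20696 and 135 bases with Gm49348.

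The zinc finger factors Klf2 and Klf3 were at similar levels in wild type. Klf2 (ENSMUSG00000055148, chromosome 8, 72319033 to 72321656, plus strand) was at 389, 479 and 697 CPM in IPMK cKO and 417, 352 and 443 CPM in wild type. IPMK cKO replicate 1 lay among the wild type libraries and replicate 3 was the highest of all (+0.37, SE 0.29, 95% interval −0.27 to 1.01). Without IPMK cKO replicate 3 the Klf2 estimate was +0.10. Klf3 (ENSMUSG00000029178, chromosome 5, 64803388 to 64832901, plus strand) was at 1126, 547 and 614 CPM in IPMK cKO and 417, 428 and 469 CPM in wild type. All IPMK cKO libraries were above wild type and replicate 1 was far above the others (+0.80, SE 0.31, edgeR unadjusted p = 0.0276, adjusted p = 0.9999). Without IPMK cKO replicate 1 the Klf3 estimate was +0.40.

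Id3 (ENSMUSG00000007872, chromosome 4, 136143497 to 136145755, plus strand) was the factor with an estimate below 0. It was at 21.8, 59.1 and 107 CPM in IPMK cKO and 102, 103 and 89.9 CPM in wild type. IPMK cKO replicate 3 was the highest library of all and replicate 1 the lowest, so the groups overlapped and the coefficient of variation was 68.3% in IPMK cKO and 7.33% in wild type (n = 3 each). The estimate was −0.65 (SE 0.49, 95% interval −1.73 to 0.44). It was −0.24 without IPMK cKO replicate 1 and −1.28 without replicate 3. Gene-wise variation of Id3 in the edgeR fit (biological coefficient of variation 0.444) was above the median of 0.371 for genes of like abundance, as was that of Klf3 (0.305 beside 0.292), whereas that of each of the other 7 was below its own such median.

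Foxp1 (ENSMUSG00000030067, chromosome 6, 98925338 to 99522721, minus strand) was at 1135, 899 and 1004 CPM in IPMK cKO and 654, 779 and 657 CPM in wild type. The groups did not overlap, and the ratio of means was 1.45 (log2 fold change +0.54, SE 0.25, edgeR unadjusted p = 0.0535, adjusted p = 0.9999). Ets1 (ENSMUSG00000032035, chromosome 9, 32636221 to 32757820, plus strand) was at 991, 924 and 929 CPM in IPMK cKO and 815, 889 and 798 CPM in wild type. Ets1 was the steadiest of the 9, with a highest to lowest library ratio of 1.24, and although its groups did not overlap its estimate was small (+0.19, SE 0.24). Scaled by library totals alone the Ets1 estimate was −0.010 and its groups overlapped. That scaling moved the median of all genes to −0.17 and left 2 of the 9 factors with every IPMK cKO library above wild type.

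**Figure D3:**
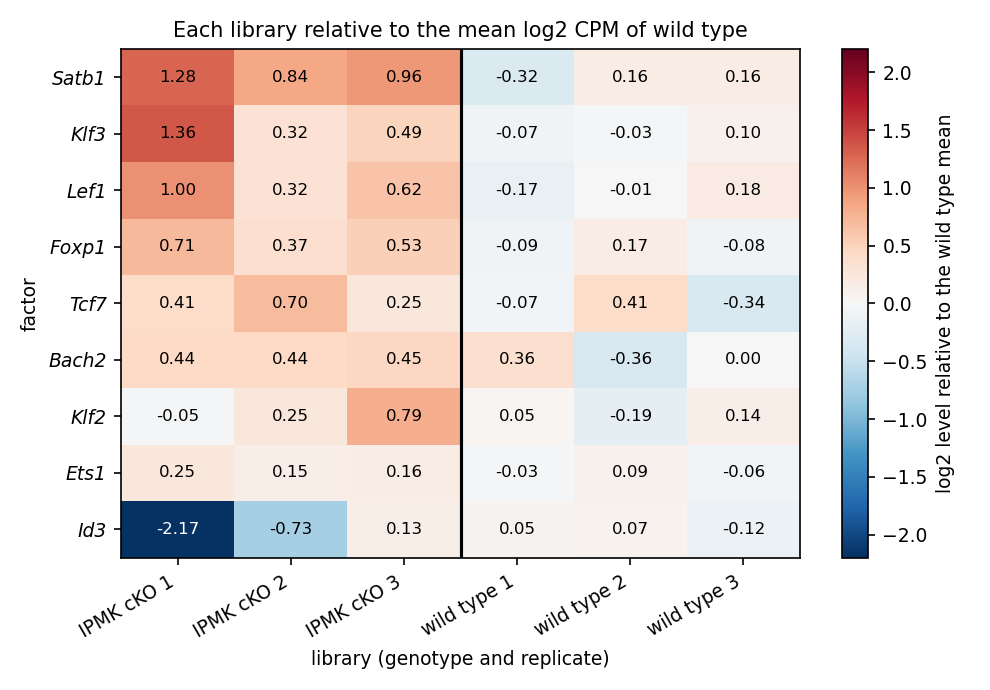
Log2 level of each factor (rows) in each library (columns) relative to the mean log2 CPM of wild type, with red above and blue below. In IPMK cKO the values of Satb1 are 1.28, 0.84 and 0.96, and the lowest value is −2.17 for Id3 in IPMK cKO replicate 1.

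Seen library by library, the median of the 9 factors relative to the wild type mean was +0.44, +0.32 and +0.49 on the log2 scale in IPMK cKO replicates 1 to 3, against −0.07, +0.07 and 0.00 in wild type. In IPMK cKO replicate 3 all 9 factors were above the wild type mean, in replicate 2 there were 8 and in replicate 1 there were 7, with Id3 and Klf2 below. Together the 9 factors took 0.590%, 0.543% and 0.630% of the counts outside Rn45s in IPMK cKO and 0.436%, 0.457% and 0.454% in wild type. Replicate 1 of IPMK cKO held both extremes, Klf3 at +1.36 and Id3 at −2.17. Without that library the estimate of Lef1 was +0.47, of Foxp1 +0.44, of Bach2 +0.41, of Tcf7 +0.45, of Klf2 +0.54 and of Ets1 +0.15, and the median of the 9 was +0.44. Without both that library and wild type replicate 1, the estimate of Satb1 was +0.74, of Lef1 +0.39, of Klf3 +0.37, of Foxp1 +0.41 and of Bach2 +0.61.

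The profile of Satb1 over the 6 libraries was compared with that of 9881 other genes tested, by the root mean square difference of centred log2 CPM. This is a description over 6 libraries that share their scaling. The nearest were Frmd6 (0.06), the sulfate transporter Slc26a2 (0.10), the Schlafen gene Slfn1 (0.14), the carnosine synthase Carns1 (0.16) and Lyrm2 (0.16), and the median over all these genes was 0.92. Slfn1 was at 354, 263 and 275 CPM in IPMK cKO and 144, 183 and 149 CPM in wild type. Among the other factors Lef1 stood at rank 21 (0.22), Klf3 at rank 68 (0.28) and Foxp1 at rank 75 (0.28). Tcf7, Ets1, Bach2 and Klf2 were at ranks 708, 840, 1007 and 1478, and Id3 was at rank 6489 (1.26), beyond the median gene.

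Ratios of counts within a library do not depend on its scaling, and 4 of them were compared. BACH2 and the effector factor BLIMP1, encoded by Prdm1, are known to oppose each other. Bach2 had 7.30, 5.22 and 13.4 counts per count of Prdm1 in IPMK cKO, against 3.75, 2.16 and 3.37 in wild type. Every IPMK cKO library was above every wild type library, with a mean log2 ratio of 2.995 ± 0.69 in IPMK cKO and 1.59 ± 0.42 in wild type (SD, n = 3 each). The exact permutation test gave a two-sided p of 0.1, which is the lowest value possible with 3 against 3 libraries (exact, adjusted p = 0.4 over the 4 ratios). Prdm1 was at 29.3, 40.9 and 16.1 CPM in IPMK cKO and 54.0, 57.0 and 47.0 CPM in wild type, below wild type in every IPMK cKO library (−0.87, SE 0.47). Id3 had 0.187, 0.655 and 0.778 counts per count of its paralog Id2 in IPMK cKO, against 0.703, 0.758 and 0.515 in wild type (exact permutation p = 0.7, adjusted p = 0.8). The ratios of Tcf7 to Lef1 and of Klf2 to Klf3 also overlapped between the groups (exact permutation p = 0.7 and 0.8, adjusted p = 0.8 for each). Without IPMK cKO replicate 1 the difference in log2 ratio changed sign for these 3, to +0.14 for Id3 to Id2, to +0.0034 for Tcf7 to Lef1 and to +0.12 for Klf2 to Klf3, and without wild type replicate 2 it was +0.0089 for Tcf7 to Lef1.

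**Figure D4:**
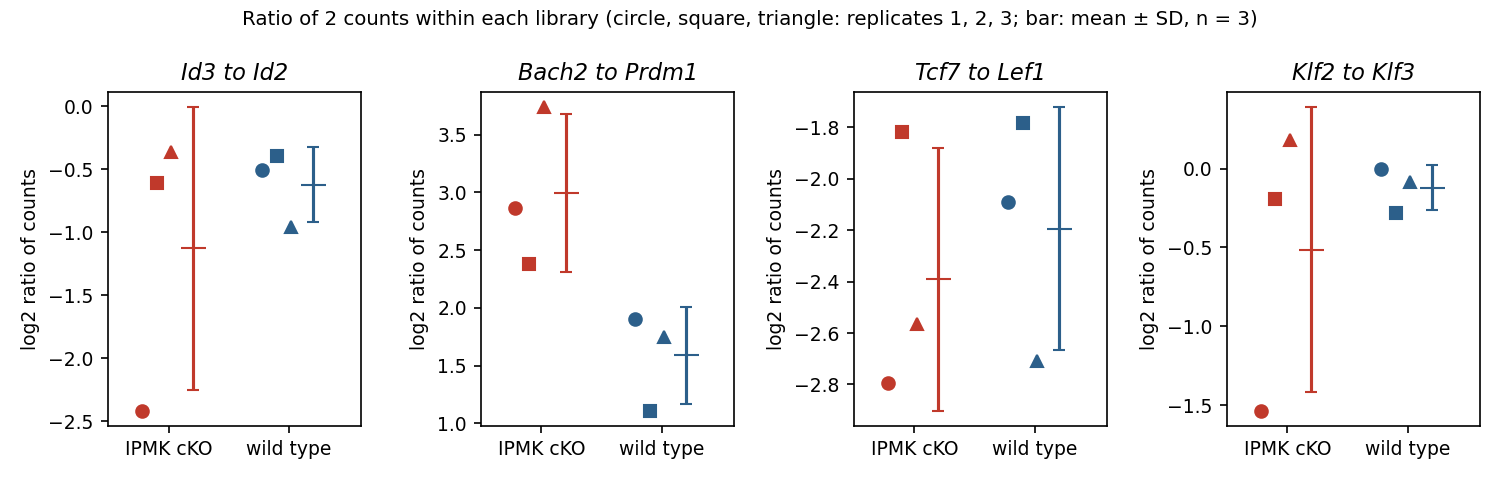
Log2 ratio of 2 counts within each library (y axis) in IPMK cKO and wild type (x axis), with circle, square and triangle for replicates 1, 2 and 3 and the mean ± SD (n = 3 each). The Bach2 to Prdm1 ratios of IPMK cKO, 2.86, 2.38 and 3.74, lie above those of wild type, 1.90, 1.11 and 1.75, and the other 3 ratios overlap.

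The proteins that work with these factors gave 0 calls by edgeR over all genes in either direction. Of 10 tested chromatin partners of SATB1, 6 had estimates above 0 and 4 below (median +0.06, and −0.092 to +0.10 over 17 alternative settings). Chd4, a helicase of the NuRD complex, was at 1246, 581 and 554 CPM in IPMK cKO and 406, 526 and 439 CPM in wild type, highest in IPMK cKO replicate 1 (+0.80, SE 0.34, and +0.31 without that library in the leave-one-out fit). Smarca4, the SWI/SNF ATPase, had +0.63 (SE 0.36, and +0.15 without the same library). Of 10 tested genes of the TCF and LEF complex, 7 were above 0 and 3 below (median +0.26, and +0.065 to +0.28 over the alternatives). The beta-catenin cofactor Pygo2 was at 39.0, 41.5 and 42.7 CPM in IPMK cKO and 47.4, 68.3 and 84.8 CPM in wild type (−0.70, SE 0.38). Aes, of the same list, had +0.63 (SE 0.37, and +0.09 without IPMK cKO replicate 1).

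Other family members were mixed, and the medians of most of these lists changed sign between settings. The BACH and small MAF list had 3 of 4 estimates above 0, with Maff at +3.61 (SE 2.62) from 0 to 13.8 CPM in IPMK cKO and 0 to 1.35 CPM in wild type, and Mafg at −0.69 (SE 0.54). The median of that list was +0.51 and turned to −0.14 without IPMK cKO replicate 1. Of 10 other KLF genes 5 were above 0 and 5 below (median −0.01, and −0.40 to +0.23 over the alternatives), with Klf7 at +0.88 (SE 0.48) and Klf10 at −1.26 (SE 1.20), which turned to +0.32 without wild type replicate 1. Of 13 other ETS genes 8 were above 0 and 5 below (median +0.05), and this median was −0.27 by limma-voom and −0.30 to +0.30 with 1 library left out. Ets2 had +0.90 (SE 0.50, and +0.59 without IPMK cKO replicate 3) and Etv6 −1.18 (SE 0.67, and −2.01 without IPMK cKO replicate 2 but −0.73 without replicate 1). The 4 tested ID and E protein genes had a median of +0.06 (−0.15 to +0.26 over the alternatives), and the E protein Tcf3 had +0.85 (SE 0.45, and +0.33 without IPMK cKO replicate 1) and Id2 −0.40 (SE 0.30). The FOXP1 relatives Foxp3 and Foxp4 had +0.998 (SE 0.61) and +0.62 (SE 0.60). Foxp3 was at +2.002 without wild type replicate 2 and at +0.54 without wild type replicate 1, and without IPMK cKO replicate 1 Foxp4 was at −0.26. Among 12 other T cell factors 9 were above 0 and 3 below (median +0.18). That median was 0.0026 without IPMK cKO replicate 1 and 0.041 without wild type replicate 1, and it turned to −0.17 without both and to −0.049 on library totals alone. Cbfb, the shared partner of RUNX factors, was at 34.1, 69.9 and 37.5 CPM in IPMK cKO and 128, 84.2 and 99.2 CPM in wild type (−1.14, SE 0.39), with no overlap of the groups, and Zeb1 had +0.66 (SE 0.33).

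Genes of the resting state and of the effector state had medians on opposite sides of 0. These lists too were chosen with earlier results of these data known, and no list was tested. Of 14 resting T cell surface and signalling genes, 10 had estimates above 0 and 4 below, with a median of +0.50 beside +0.03 over all genes. The 10 include Cd69 (+0.64, SE 0.59), which is better known as an activation marker. The median of this list was +0.21 without IPMK cKO replicate 3 and at most +0.61 over the alternatives. For 4 of the 14 all IPMK cKO libraries lay above wild type (4.74% of all genes) and for 1 all lay below (5.66% of all genes). The interleukin-6 receptor gene Il6ra was at 229, 165 and 162 CPM in IPMK cKO and 108, 118 and 105 CPM in wild type (+0.75, SE 0.29). The 4 below 0 were Dapl1 (−1.87, SE 1.19), Txk (−0.35, SE 0.49), Itgb7 (−0.07, SE 0.28) and Ccr7 (−0.06, SE 0.37). S1pr1 was near 0 (+0.03, SE 0.42). Of 9 tested effector factors 2 were above 0 and 7 below. Id2, which is also in the ID and E protein list, was the middle gene and gave the median of −0.40. This median was −0.27 without IPMK cKO replicate 1, −0.59 on library totals alone and −0.67 by limma-voom. For 3 of the 9 all IPMK cKO libraries lay below wild type (5.66% of all genes) and for 1 all lay above (4.74% of all genes). Maf was at 170, 258 and 214 CPM in IPMK cKO and 440, 519 and 293 CPM in wild type (−0.96, SE 0.31), while Ikzf3 had +0.75 (SE 0.33).

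**Figure D5:**
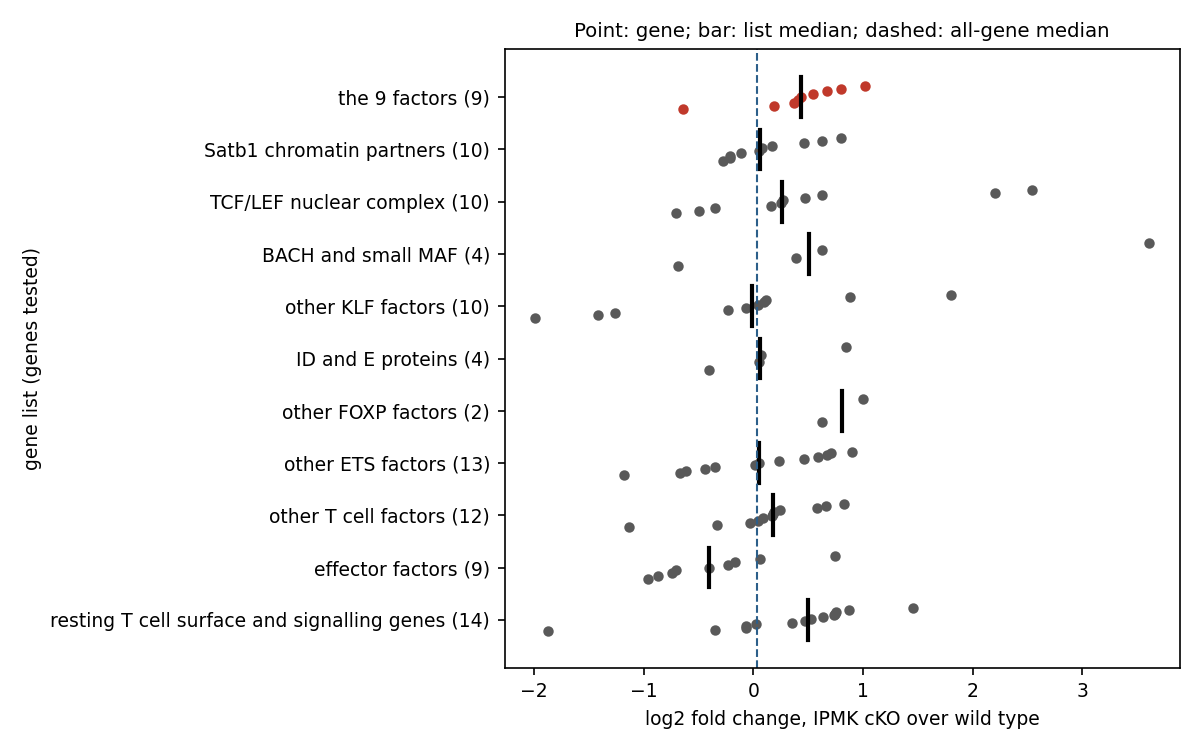
Log2 fold change, IPMK cKO over wild type (x axis), of each tested gene of the 9 factors (red) and of 10 lists of partners, relatives and targets (grey), with a bar at the median of each list and a dashed line at the all-gene median of +0.03. The medians are +0.43 for the 9 factors, +0.50 for resting T cell genes and −0.40 for effector factors.

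Markers of other cells were set beside the 9 factors, since B cells and conventional T cells also express several of them. The conventional CD4 T cell list (3 of 4 genes with counts) summed to 32.5 to 115 CPM in IPMK cKO and 68.7 to 87.1 CPM in wild type, led by Igfbp4 at 25.9, 93.7 and 108 CPM in IPMK cKO and 59.8, 39.5 and 59.3 CPM in wild type. Its other genes with counts were at lower levels than Igfbp4, Dapl1 at 3.66, 3.53 and 2.44 CPM in IPMK cKO and 10.6, 8.75 and 16.0 CPM in wild type, and Cd40lg at 2.95, 15.3 and 4.36 CPM in IPMK cKO and 6.62, 20.5 and 11.8 CPM in wild type. In IPMK cKO replicates 2 and 3 Igfbp4 was above Foxp3 and Tcf7, while for Dapl1 every IPMK cKO library was below wild type. Igfbp4 and Dapl1 are also in the list of resting T cell genes above. The B cell list (5 of 7) summed to 11.8 to 14.2 CPM in IPMK cKO and 10.8 to 26.2 CPM in wild type, led by Cd79b. The NK cell list (2 of 4) summed to 11.8 to 22.5 CPM in IPMK cKO and 1.91 to 7.94 CPM in wild type. Its signal in IPMK cKO came from Eomes, at 22.5, 11.8 and 15.0 CPM there and 0, 1.91 and 3.85 CPM in wild type. The CD8 list (1 of 2, Cd8b1) was at 2.11 to 8.62 CPM in IPMK cKO and 7.82 to 12.2 CPM in wild type. The plasma cell list (4 of 4), led by Xbp1, summed to 19.1 to 36.6 CPM in IPMK cKO and 32.8 to 54.2 CPM in wild type. The macrophage list (4 of 6, led by Cd68) was at 0 to 14.2 CPM in IPMK cKO and 0.602 to 7.65 CPM in wild type, and the dendritic list (2 of 5, led by Xcr1) at 0.710 to 1.27 CPM in IPMK cKO and 0.963 to 9.99 CPM in wild type. The neutrophil list (3 of 5, led by Mpo) summed to 0 to 3.27 CPM in IPMK cKO and 0 to 0.547 CPM in wild type, and the erythroid list (5 of 6, led by Hba-a1) to 0 to 16.7 CPM in IPMK cKO and 0.120 to 56.3 CPM in wild type. The T cell list, led by Cd3d, was at 1515 to 2493 CPM in IPMK cKO and 1809 to 1928 CPM in wild type. The part of other cells in the levels of the 9 factors was not tested.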

How the data were processed

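Trizol RNA went into Lexogen QuantSeq libraries, per the labels' protocols, a kit that tags polyadenylated transcripts near their 3′ end. Each deposited file holds raw, whole-number counts by gene symbol with no normalization, per the file headers and values. The tools Bowtie2 and edgeR and the builds hg19 and mm10 appear without a role, per the submitters' processing notes. No source names the counting program, annotation, strand setting or filters.

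After filterByExpr (minimum count 10) and TMM scaling, edgeR 4.0.16 (R 4.3.3) gave quasi-likelihood tests, with Benjamini-Hochberg adjustment over 10475 genes and a threshold of 0.05. CPM uses the TMM-scaled library sizes, and the SE is the estimate over the square root of F. The procedure was run on simulated counts, but recovery of changes was required only at a spread below that of these data. That run therefore does not show which changes could be called here. Within-library ratios used log2 with 0.5 added to each count. DESeq2 1.42.0, limma-voom (limma 3.58.1), other scalings and filters, a replicate block and left-out libraries were alternatives. The members and lists were chosen with earlier results of these data known. The genes named were the 9 factors, Ipmk, Id2 and Prdm1, the 2 genes of each partner list with the smallest p, the 5 genes nearest to Satb1 and the most abundant gene of each marker list. Of these, 1 gene of the resting T cell list is not reported here. Bach2os, Nrp1, Tnfrsf18, Dapl1, Cd40lg, Txk, Itgb7, Ccr7, S1pr1, Cd69, the other overlapping genes and the markers without counts were named after their values were seen. Depth was 7464546 to 8980395 counts per library. Coordinates are from GENCODE M21 (mm10), which held the symbols of 96.1% of genes tested and of all 9 factors, and promoter windows are from RefSeq. Shared replicate numbers were not modelled in the main fit, since the labels tie them to no animal, litter or day. The replicate block was an alternative. Deviations from the group mean correlated weakly across genes in same-numbered libraries (0.05, 0.09 and 0.03 for numbers 1 to 3). Between libraries of different numbers these correlations were all negative, at −0.061 to −0.0011.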

Additional observations from a re-analysis of the deposited data

How the results depend on the processing

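Of 153 estimates of the 9 factors under 17 alternative settings, 152 had the sign of the main estimate, 1 had the opposite sign and 0 were called. The opposite sign was that of Ets1 on library totals alone (−0.010), where 2 factors, against 6, had every IPMK cKO library above wild type. The main Satb1 estimate of +1.02 ranged from +0.74 to +1.09. With the replicate number as a block it was +1.02, 8 of 9 estimates were above 0 and the replicate block changed no call, while it took the median of the other ETS factors to −0.41 and that of the effector factors to −0.69. Over all genes 0 were called higher under each setting. DESeq2 called 3 lower, and edgeR called 1 lower without both libraries numbered 1 and 0 to 1 with 1 library left out (1 without IPMK cKO replicate 1). With 1 library left out, 0 to 1 factors had every IPMK cKO library below wild type, Id3 being that factor without IPMK cKO replicate 3. Foxp4 turned to −0.26 without IPMK cKO replicate 1 and to −0.033 without both libraries numbered 1. Klf10 was at −2.40 to +0.32 with 1 library left out, turning to +0.32 without wild type replicate 1, and it turned to +0.86 without both. With 1 library left out, the difference in log2 ratio ranged from −0.89 to +0.14 for Id3 to Id2, from −0.48 to +0.01 for Tcf7 to Lef1, from −0.74 to +0.12 for Klf2 to Klf3 and from +1.04 to +1.71 for Bach2 to Prdm1. The ratio of Id3 to Id2 turned to +0.14 and that of Klf2 to Klf3 to +0.12 without IPMK cKO replicate 1. That of Tcf7 to Lef1 turned to 0.0034 without that library and to 0.0089 without wild type replicate 2. The cause of these changes was not tested. The wide intervals limit what 3 libraries per group can show for a single factor.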
